A study of Homo sapiens with 6 samples.

Results

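The block described here is the stretch of chromosome 19 from 30000000 to 45000000 (build hg19), on the long arm. Its members are the peaks of 4 lists whose midpoint lies in that stretch, 9579 of the 1390121 peaks in all. The YAP libraries gave 2465 and 2462 of them and the TAZ libraries 2461 and 2191. The rest of chromosome 19 held 6291 and 6422 YAP peaks and 6577 and 5746 TAZ peaks. The lists come from chromatin immunoprecipitation followed by sequencing in H1299 cells, a human line from a non-small cell lung carcinoma. All samples were serum starved for 18 hours: 2 libraries with an anti-YAP antibody, 2 with an anti-TAZ antibody and 2 inputs without antibody. Peaks were called against an input, and which input was used for each list is unsettled. No label named separate cultures, so every spread and p-value below measures the difference between libraries, which may be technical. Read depth is unknown.

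YAP and TAZ are sister coactivators that the Hippo kinases hold in the cytoplasm by phosphorylation. In the nucleus they bind DNA through partners, mainly the TEAD factors, at enhancers and promoters of growth and cytoskeletal genes. Chromosome 19 is the most gene-dense human chromosome and is known for long clusters of KRAB zinc finger genes, which encode repressors of transposable elements. The block lies in its 19q12 to 19q13 bands. CCNE1, which encodes cyclin E1, an activator of entry into S phase, lies near its start, and PLAUR, the urokinase receptor gene, near its end. In the RefSeq order of genes (GRCh38.p14), 285 protein-coding genes stand from CCNE1 to PLAUR. Of these, 45 (15.8%) have a ZNF or ZFP symbol with a number, against 255 of the 1451 protein-coding genes of the whole chromosome (17.6%). Genes of the block before CCNE1 or after PLAUR are not in this count, so it gives no share for the whole block. Among the other genes from CCNE1 to PLAUR are AKT2, a kinase of the insulin pathway, ACTN4, an actin crosslinker, and AXL, a receptor tyrosine kinase known as a YAP target. This table follows another build than the peaks, so no peak was given a gene, and no sequence of the hg19 regions could be printed.

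The block was selected on the number of strong peaks per window, which was high there with both antibodies. Strong peaks are the 20000 of each library with the highest −log10 q, the peak caller's significance after correction for multiple testing. Peak number, −log10 p, −log10 q and fold come from the same lists, so comparisons of the block with the rest of the chromosome are descriptions without a test. The block held 829 and 676 strong YAP peaks and 546 and 531 strong TAZ peaks. That was 33.6% and 27.5% of its YAP peaks and 22.2% and 24.2% of its TAZ peaks, where strong peaks made up 5.1% and 5.66% of all YAP peaks and 6% and 6.44% of all TAZ peaks on chromosomes 1 to 22 and X. Per Mb there were 55.3 and 45.1 strong YAP peaks in the block, against 5.17 and 5.55 in the rest of chromosome 19. For TAZ there were 36.4 and 35.4 per Mb in the block, against 5.94 and 4.74.

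Counted without regard to rank, peaks of the block were a little denser than those of the rest of its chromosome as a whole, and covered about the same share. Its peak density was 164 per Mb in both YAP libraries and in TAZ replicate 1, and 146 in TAZ replicate 2, against 143, 146, 149 and 130 per Mb in the rest of the chromosome. The ratio of block to rest was 1.13 ± 0.021 (SD, n = 4 libraries), and 1.07 ± 0.020 when the 2 windows with no peak, at the centromere, were left out of the rest. The rest joined unlike parts: the chromosome after the block had 170 and 177 YAP peaks and 179 and 173 TAZ peaks per Mb, more than the block in each library, and the chromosome before the centromere 142 and 144 YAP peaks and 149 and 120 TAZ peaks per Mb, fewer than the block in each. Peaks covered 49.7% and 49.4% of the block with YAP and 47.5% and 51.98% with TAZ. They covered 50.5% and 48.4% of the rest with YAP and 46.2% and 50.2% with TAZ. The block was thus lower than the rest in YAP replicate 1 and higher in the other 3 libraries, by 0.832 ± 1.13 percentage points over the 4 (SD). Without the 2 empty windows the difference was -1.49 ± 1.17, lower in the block in all 4 libraries. Cover was 61.1% and 61.2% with YAP and 58.6% and 64.0% with TAZ before the centromere, and 45.4% and 38.9% with YAP and 37.6% and 40.6% with TAZ after the block, so the block lay between the parts.

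**Figure D1:**
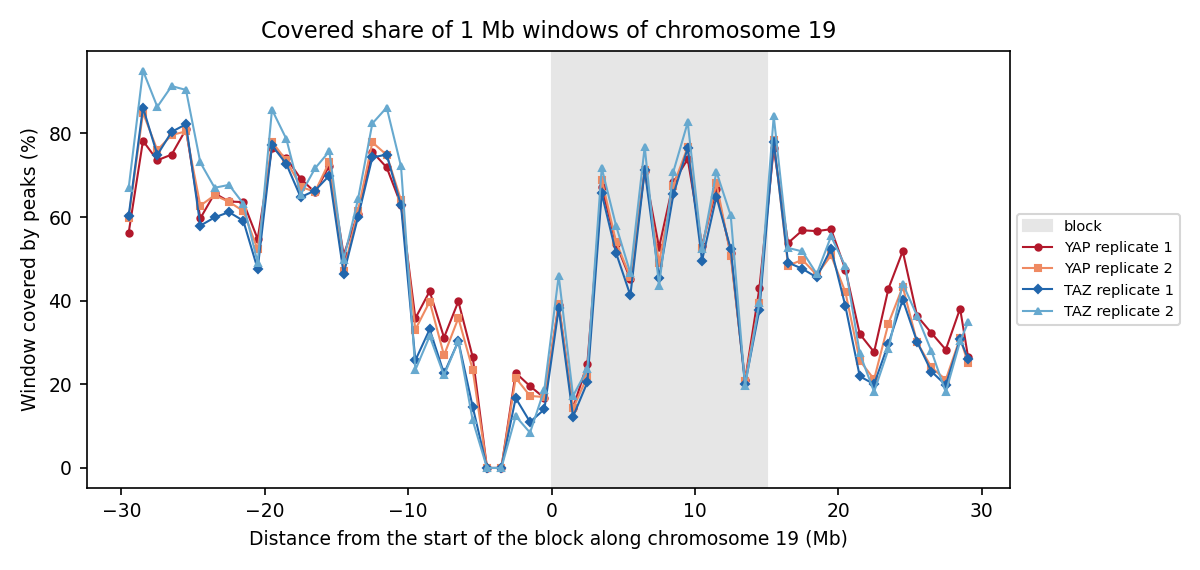
Share of each 1 Mb window of chromosome 19 covered by peaks (percent, y axis) against distance from the start of the block (Mb, x axis), with 1 line per library and the block shaded. The 4 lines rise and fall together, and windows in the block run from 14.5% to 77.5% in the mean of the libraries.

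Inside the block, cover was very uneven, and all 4 libraries placed the full and the sparse windows alike. The fullest of the 15 windows of 1 Mb was 39000001 to 40000000, covered to 73.9% and 76.8% by YAP peaks and to 76.5% and 82.7% by TAZ peaks. The emptiest was 31000001 to 32000000, with 14.3% and 14.2% with YAP and 12.3% and 17.2% with TAZ. The fullest window did not hold more peaks but wider ones. It had 129 and 124 YAP peaks and 114 and 102 TAZ peaks, with median widths between 2930 and 4248 bp. The emptiest had 158 and 153 YAP peaks and 130 and 150 TAZ peaks, with medians between 452 and 701 bp. Across the 15 windows the covered share had a Spearman's rho between 0.950 and 0.989 in the 6 pairs of libraries; the windows are neighbours on 1 chromosome, and the lists may share an input.

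Another sparse window, 43000001 to 44000000, held the 3 longest stretches without a peak in any library. They spanned 93265 bp from 43265177 to 43358441, 75109 bp from 43693406 to 43768514 and 24179 bp from 43588512 to 43612690. The peak of TAZ replicate 2 with the highest fold in the block, 5.39 from 43264636 to 43265066, stood directly before the longest of these stretches. Between neighbouring peaks the median gap was 1985 and 1905 bp with YAP and 1888 and 1930 bp with TAZ, against 1935 and 1884 bp with YAP and 1881 and 1870 bp with TAZ in the rest of the chromosome.

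In 3 libraries, peaks of the block were narrower than those of the rest of chromosome 19 as a whole. The median width was 1435 and 1389 bp with YAP and 1433 and 1584 bp with TAZ in the block, against 1777 and 1592 bp with YAP and 1556 and 1560 bp with TAZ in the rest. The difference was -342, -203 and -123 bp in 3 libraries and 24.5 bp in TAZ replicate 2, so its sign was not shared by all 4. Before the centromere the medians were 2227 and 2097 bp with YAP and 1999 and 2097 bp with TAZ, wider than in the block in each library. After the block they were 1511 and 1253 bp with YAP and 1230 and 1267 bp with TAZ, narrower than in the block in all but YAP replicate 1. Peaks under 500 bp made up 28.1% and 26.0% of the YAP members and 24.9% and 22.6% of the TAZ members, against 20.9% and 20.9% with YAP and 21.1% and 20.05% with TAZ in the rest. At the other end, 154 and 148 YAP peaks and 142 and 170 TAZ peaks of the block were 10 kb or wider. These wide peaks were 6.25% and 6.01% of the YAP members and 5.77% and 7.76% of the TAZ members but carried 34.9% and 36.1% of the peak bases with YAP and 33.8% and 43.9% with TAZ. The widest YAP peaks spanned 51309 bp from 33488410 to 33539718 (replicate 1) and 54760 bp from 39673167 to 39727926 (replicate 2). The widest peak of TAZ replicate 1 lay at almost the same place as that of YAP replicate 2, from 39673155 to 39728460, with a fold of 3.42 against 3.53 in YAP replicate 2. In TAZ replicate 2 the widest peak spanned 79956 bp from 40903278 to 40983233.

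The authors' fold is the ratio of immunoprecipitated signal to input across a peak. It was a little higher in the block than in the rest of the chromosome as a whole, but lower than before the centromere. Its median was 3.41 and 3.25 with YAP and 3.28 and 3.13 with TAZ in the block, against 3.21 and 3.18 with YAP and 3.21 and 3.05 with TAZ in the rest of the chromosome. Before the centromere the median was 3.43 and 3.33 with YAP and 3.36 and 3.23 with TAZ, above the block in each library. After the block it was 2.98 and 3.04 with YAP and 3.06 and 2.89 with TAZ. Of the YAP members 14.8% and 9.38%, and of the TAZ members 10.1% and 5.75%, had a fold of 4 or more. In the rest of the chromosome the shares were 8.35% and 5.64% with YAP and 7.66% and 3.52% with TAZ. Before the centromere they were 11.98% and 7.63% with YAP and 10.25% and 4.92% with TAZ, above the block in TAZ replicate 1 alone. After the block they were 2.33% and 2.32% with YAP and 3.44% and 1.60% with TAZ. Over chromosomes 1 to 22 and X they were 9.22% and 7.52% with YAP and 9.68% and 5.6% with TAZ. In YAP replicate 2 and both TAZ libraries, peaks under 500 bp reached this fold most often in the block (15.6%, 15.1% and 10.7%), and peaks of 10 kb or wider seldom did (0.676%, 4.93% and 0.588%). In YAP replicate 1 the shares were 15.6% and 9.09%.

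**Figure D2:**
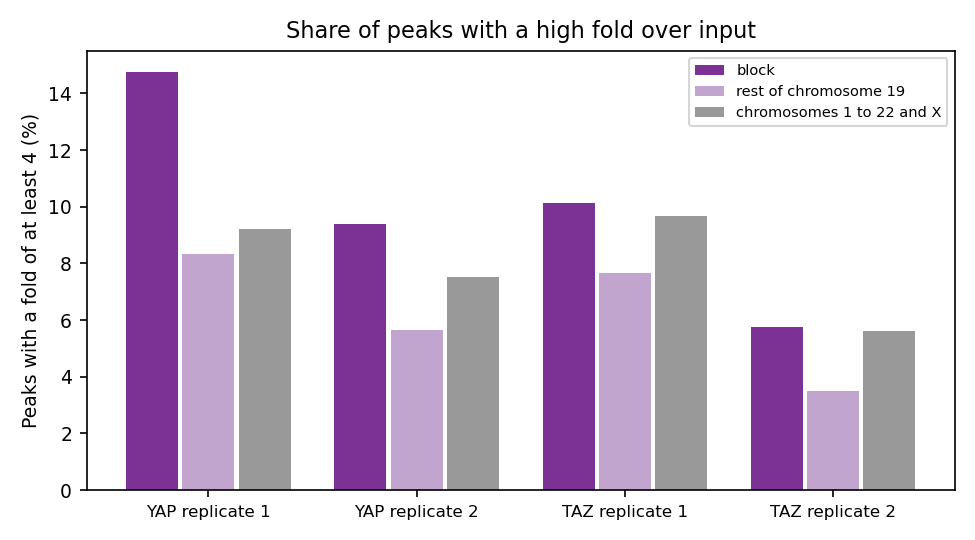
Share of peaks with an authors' fold of at least 4 (percent, y axis) in each of the 4 libraries, with bars for the block, the rest of chromosome 19 and chromosomes 1 to 22 and X. In each library the bar of the block is above that of the rest of the chromosome; the TAZ replicate 2 bar, at 5.75%, is close to the 5.6% of all its peaks.

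At a given fold, peaks of the block had a higher significance than peaks of the rest in all 4 libraries. Among peaks with a fold of 3.0 to 3.5, the median −log10 p was 7.89 and 6.47 with YAP and 5.69 and 5.82 with TAZ. In the rest of chromosome 19 it was 5.44 and 4.74 with YAP and 4.40 and 4.42 with TAZ, a difference of 1.72 ± 0.52 (SD, n = 4 libraries). The difference was about as large, 1.62 ± 0.49, among peaks of this fold under 500 bp, whose medians were 7.64, 6.38, 5.49 and 5.59 in the block, against 5.39, 4.62, 4.29 and 4.34 in the rest, in the same order of libraries. At an equal fold, a peak caller's p falls as the reads of both the immunoprecipitate and the input rise. The lists hold no read numbers, so the part of local read number or DNA copy number in this difference was not tested.

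The extent of the high significance was followed along the chromosome. Each peak with a fold of 2.5 to 4 was set against the genome-wide median −log10 p of peaks of the same fold, in bins of 0.1, of its own library. The median excess in the block was 2.39 and 1.68 with YAP and 1.28 and 1.27 with TAZ. Over the rest of the chromosome it was -0.0298 and -0.0296 with YAP and -0.0227 and -0.0216 with TAZ. Within the block the windows ran from 1.67 to 3.06 in YAP replicate 1, 1.24 to 2.16 in YAP replicate 2, 0.895 to 1.61 in TAZ replicate 1 and 0.960 to 1.67 in TAZ replicate 2. In each library the lowest of the 15 windows lay between 30000001 and 32000000, at the start of the block.

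**Figure D3:**
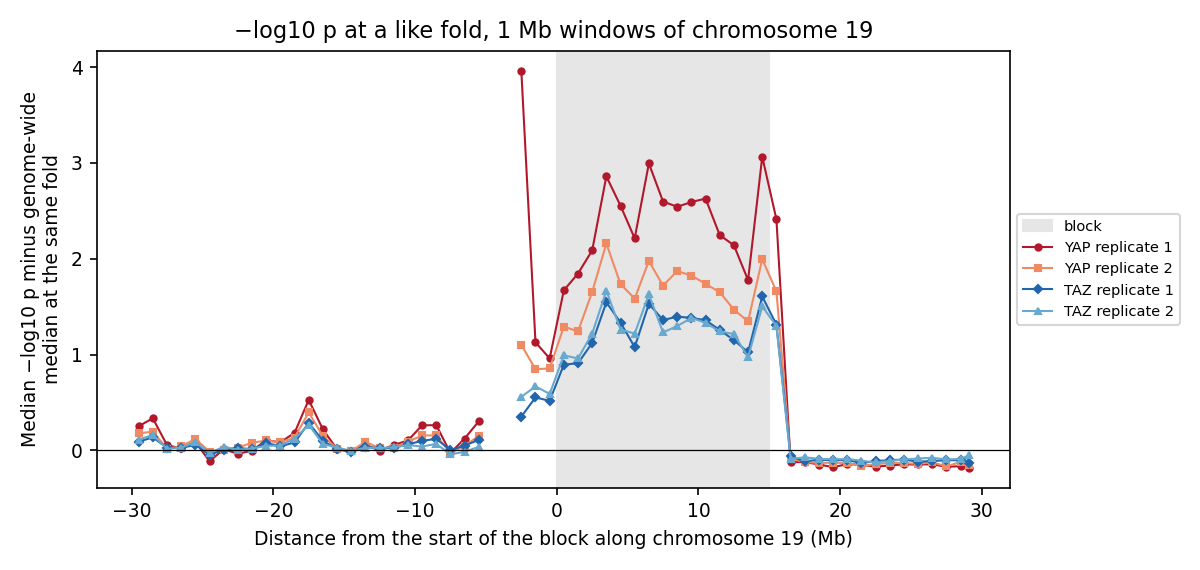
Median −log10 p minus the genome-wide median at the same fold (y axis) in 1 Mb windows along chromosome 19, against distance from the start of the block (Mb, x axis), for the 4 libraries; windows with fewer than 5 peaks are not drawn. On the short arm the highest window reaches 0.528, in YAP replicate 1, and from 46 Mb on all values are below 0, while the lines lie at or above 0.895 in every library throughout the shaded block; the high point of YAP replicate 1 before the block, 3.96, is a window beside the centromere with 13 such peaks.

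The chosen end was not an edge of this measure, and no split was searched at the start. Between 28 and 30 Mb, just before the block, the excess was already 1.02 and 0.848 with YAP and 0.529 and 0.594 with TAZ, below the level inside, and peaks covered 18.2% and 17.1% of this stretch with YAP and 12.5% and 13.6% with TAZ. The first window of the block, from 30000001, had an excess of 1.67 and 1.29 with YAP and 0.895 and 0.992 with TAZ and was covered to 39.0% and 39.3% with YAP and 38.2% and 45.99% with TAZ. Between 45 and 46 Mb, just after it, the excess was 2.41 and 1.66 with YAP and 1.31 and 1.298 with TAZ, close to the level inside, and peaks covered 76.4% and 78.4% of that window with YAP and 78.1% and 84.2% with TAZ. The drop came 1.3 Mb beyond the end of the block and was abrupt. A single split of the peaks between 40 and 52 Mb, placed to minimise the squared error, fell between 46317328 and 46325394 in YAP replicate 1 and between 46313487 and 46314826 in YAP replicate 2. It fell between 46315534 and 46316579 in TAZ replicate 1 and between 46297996 and 46299072 in TAZ replicate 2. These 4 positions lay within 27.4 kb, in lists of the same cell line that may share an input. The split was placed on the same values whose medians follow. The median before the split was 2.44 and 1.67 with YAP and 1.31 and 1.304 with TAZ, against -0.147 and -0.132 with YAP and -0.101 and -0.0929 with TAZ after it.

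**Figure D4:**
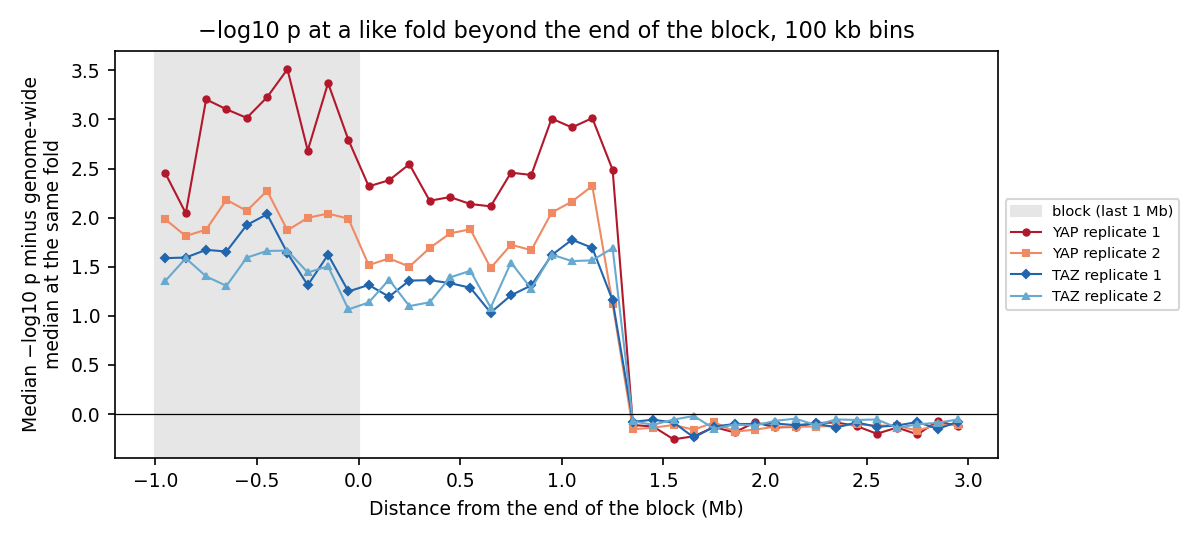
Median −log10 p minus the genome-wide median at the same fold (y axis) in bins of 100 kb, against distance from the end of the block (Mb, x axis), for the 4 libraries, with the last 1 Mb of the block shaded. All 4 lines stay at or above 1.03 up to 1.3 Mb beyond the end and are below 0 in each bin after it.

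Other measures were compared between stretches on both sides of the drop. The window from 46 to 47 Mb, which holds the drop, was left out, and no split was searched in these measures. Between 41 and 46 Mb there were 239 and 193 strong YAP peaks and 169 and 145 strong TAZ peaks, against 3 and 7 with YAP and 10 and 8 with TAZ between 47 and 52 Mb. All peaks were fewer on the near side, with 754 and 742 with YAP and 731 and 624 with TAZ, against 868, 939, 967 and 987 on the far side. The share with a fold of at least 4 was 13.5% and 9.03% with YAP and 9.99% and 5.29% with TAZ on the near side, against 1.38%, 2.56%, 3.41% and 1.52% on the far side. Covered shares lay between 50.6% and 54.9% on the near side and between 41.3% and 50.02% on the far side. Single windows varied more, from 20.4% to 79.3% on the near side and from 26.8% to 53.96% on the far side in the mean of the libraries. The count of strong peaks rests on the −log10 q and so is not independent of the split.

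The stretch on chromosome 12 from 38000000 to 50000000, also chosen for its strong peaks, was like the block in −log10 p at a given fold. Strong peaks rest on the −log10 q, so this likeness is not independent of the choice of both stretches. At a fold of 3.0 to 3.5, the block had a median −log10 p of 7.89 and 6.47 with YAP and 5.69 and 5.82 with TAZ, and the chromosome 12 stretch had 8.52 and 6.75 with YAP and 5.96 and 5.90 with TAZ. Median widths at this fold differed more: 1771 to 2675 bp in the block, against 523 to 805 bp on chromosome 12.

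The libraries overlapped more in the block than in the rest of the chromosome as a whole, and about as much as before the centromere. The Jaccard index, the bases covered in both libraries divided by the bases covered in either, was 0.802 for the YAP pair and 0.739 for the TAZ pair in the block, against 0.745 and 0.669 in the rest of the chromosome. For YAP with TAZ it was 0.723 to 0.762 in the block, against 0.662 to 0.695 in the rest. The block was higher in all 6 pairs, by 0.0678 ± 0.0076 (SD over pairs, which share libraries). By part, the 6 pairs ran from 0.723 to 0.802 in the block, against 0.721 to 0.792 before the centromere, 0.409 to 0.686 from the centromere to the block and 0.520 to 0.638 after it. Of the 25 windows before the centromere, 14 had a mean index at or above the block's median of 0.755, and so did 1 of the 15 windows after the block. That window, from 45 to 46 Mb, had 0.849, and 1 window before the centromere had 0.836; both were above the highest of the block, 0.833. By cover, the median of the mean index was 0.635 in 3 windows of the block covered to between 10% and 30%, against 0.463 in 11 of the rest. It was 0.737 in 7 windows of the block covered to between 30% and 60%, against 0.577 in 13 of the rest, and 0.810 in 5 windows covered to between 60% and 80%, against 0.767 in 16 of the rest. The rest joined unlike parts here too. Between 30% and 60% of cover, its windows before the centromere had 0.758, 0.651, 0.657 and 0.657, and those after the block 0.483 to 0.687. The windows of the block in this class ran from 0.652 to 0.773. The excess of −log10 p and the agreement were both lower on the far side of the drop at 46.3 Mb. The 6 pairs had an index of 0.748 to 0.816 between 41 and 46 Mb, against 0.487 to 0.628 between 47 and 52 Mb. Before the centromere the agreement was as high as in the block at an excess of 0.0887 and 0.0709 with YAP and 0.0474 and 0.0391 with TAZ. Cover was higher there, at 58.6% to 64.0% against 47.5% to 51.98% in the block. The part of the excess or of cover in the agreement was not tested.

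**Figure D5:**
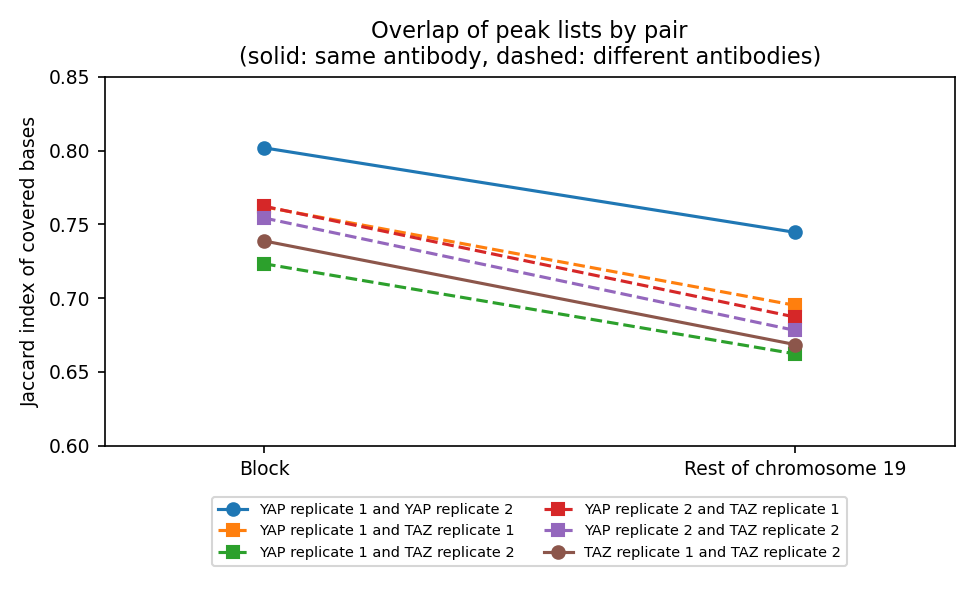
Jaccard index of covered bases (y axis, starting at 0.6) of the 6 pairs of libraries in the block and in the rest of chromosome 19, with 1 line per pair, solid for pairs of 1 antibody and dashed for a YAP with a TAZ library. Each line is higher in the block, and the YAP pair is the highest in both.

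Single peaks agreed more closely in the block than in the rest as a whole, which was not split by part for the measures below. The share of peaks matched in another library at a reciprocal overlap of 50% was between 50.2% and 69.7% in the block, against 36.3% to 55.9% in the rest. Borders of matched peaks differed by a median of 55 to 75 bp in the block, against 92 to 127 bp in the rest. The authors' fold of matched peaks did not agree more: Spearman's rho was 0.262 to 0.436 in the block (1237 to 1715 peaks a pair), against 0.286 to 0.438 in the rest. Of the bases covered by any library in the block, 59.6% were covered by all 4, against 49.2% in the rest.

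Within the block, no difference between YAP and TAZ passed a test, and none could, since 2 libraries against 2 allow no p under 0.333. The YAP libraries held 2465 and 2462 members and the TAZ libraries 2461 and 2191, a difference of 137.5 (exact two-sided permutation p = 0.333). It rested on TAZ replicate 2: without it the difference was 2.5, and without TAZ replicate 1 it was 272.5. As a share of each library's peaks on chromosome 19, the block took 27.9% ± 0.31 with YAP and 27.4% ± 0.27 with TAZ (SD, n = 2; exact two-sided permutation p = 0.333). This difference of 0.515 percentage points was 0.296 without YAP replicate 1 and 0.328 without TAZ replicate 1, and -2.19 once q-values above 0.01 were left out. The covered share was 49.5% ± 0.22 with YAP and 49.7% ± 3.2 with TAZ (SD, n = 2; exact two-sided permutation p = 1), and the difference of -0.204 percentage points became 2.03 without TAZ replicate 2 and -2.44 without TAZ replicate 1. Median widths of 1412 ± 32.5 bp with YAP and 1509 ± 107 bp with TAZ overlapped (SD, n = 2; exact two-sided permutation p = 0.667). This difference of -96.5 bp was -21 bp without TAZ replicate 2 and -172 bp without TAZ replicate 1. The share of peaks with a fold of 4 or more overlapped between the antibodies, with a mean of 12.1% ± 3.8 with YAP and 7.93% ± 3.1 with TAZ (SD, n = 2; exact two-sided permutation p = 0.667). The excess of −log10 p was higher in both YAP libraries than in both TAZ libraries, by 0.761 (exact two-sided permutation p = 0.333), and TAZ varied little, between 1.28 and 1.27. On chromosomes 1 to 22 and X, too, the YAP libraries had the higher median −log10 p at a fold of 3.0 to 3.5, 5.51 and 4.78, against 4.45 and 4.46 with TAZ. Both YAP libraries covered more than both TAZ libraries in 4 of the 15 windows, where this held in 29.3% of the 58 windows of chromosome 19 with peaks. The reverse held in 1 window of the block, against 12.1% of the 58. Between pairs of 1 antibody the mean Jaccard index exceeded that between antibodies by 0.0199 (0.770 and 0.750), by less than the SD of 0.0266 among the 6 pairs; leaving out a YAP library turned it to -0.0195 (replicate 1) or -0.0038 (replicate 2), and leaving out a TAZ library gave 0.0631 (replicate 1) or 0.0398 (replicate 2).

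Peaks of the 4 libraries in the block merged, where they shared at least 1 bp, into 2057 regions. Of these, 1500 (72.9%) had peaks of all 4 libraries, against 61.7% in the rest of chromosome 19 as a whole and 39.2% on chromosomes 1 to 22 and X. A peak of only 1 library made up 191 regions (9.29%), against 13.8% in the rest and 22.4% on chromosomes 1 to 22 and X. Regions of all 4 libraries had a median width of 2601 bp and those of 1 library 406 bp; a wider region meets more lists by construction. Peaks of both YAP libraries without a TAZ peak were found in 60 regions (2.92%). This share was 3.28% in the rest of chromosome 19 and 6.87% on chromosomes 1 to 22 and X. Peaks of both TAZ libraries without a YAP peak were found in 15 regions (0.729%). That share was 1.18% in the rest of chromosome 19 and 1.44% on chromosomes 1 to 22 and X. Both counts were larger when a library was left out, which drops a condition: 99 to 177 and 28 to 85.

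The best-ranked region of all 4 libraries, by the sum of its ranks within the block, spanned 849 bp from 38120049 to 38120897. It held a single peak in each library, with a fold of 5.56 and 5.41 with YAP and 5.31 and 4.72 with TAZ. This peak had the highest fold in the block in YAP replicate 2. The second spanned 23744 bp from 33739362 to 33763105 and held 6 and 5 YAP peaks and 6 and 2 TAZ peaks. Its best peaks had a fold of 5.17 and 4.39 with YAP and 5.77 and 4.78 with TAZ, and the one of TAZ replicate 1 ranked first in its library's part of the block. In the third, a narrow one from 32673048 to 32673622, the fold was 5.28 and 4.95 with YAP and 5.40 and 4.31 with TAZ. That from 44673044 to 44675205 had 4.52 and 4.83 with YAP and 4.64 and 3.96 with TAZ. Its TAZ values come from peaks that did not overlap, from 44674424 to 44675153 in replicate 1 and from 44673047 to 44673433 in replicate 2. The fifth, from 44846643 to 44847085, had a fold of 4.18 and 3.82 with YAP and 5.01 and 4.43 with TAZ. The highest fold of YAP replicate 1 was 6.42, from 33362405 to 33363251, and that of TAZ replicate 1 was 6.31, from 30570890 to 30571326.

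Of the regions with 1 antibody, the best-ranked with YAP alone spanned 44340425 to 44340852, with a fold of 3.595 and 3.25, and the next spanned 43525450 to 43525868, with 3.52 and 4.10. With TAZ alone, the best-ranked spanned 30101220 to 30102453, with a fold of 4.02 and 2.36, and the next spanned 39733680 to 39735022, with 2.39 and 3.61. In both TAZ regions the replicates differed by more than 1 unit of fold.

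At the borders of the block, members and their outer neighbours were alike at the start. The first members there had a fold of 3.23 and 3.06 with YAP and 3.06 and 2.89 with TAZ, and the last peaks before them 3.62 and 2.89 with YAP and 2.98 and 3.22 with TAZ. At the end, the last members had a fold of 3.12 and 3.15 with YAP and 2.91 and 3.25 with TAZ. The first peaks after the end had 4.81 and 5.32 with YAP and 3.71 and 3.06 with TAZ. In YAP replicate 1 this outer peak, from 45005048 to 45005510, had a −log10 q of 16.6, against 5.99 for the last member, and in YAP replicate 2 12.9, against 4.82. In TAZ replicate 2 the outer peak, from 44998380 to 45002756, lay at another site than the outer peaks of the other libraries. It overlapped their last members and fell outside the block by its midpoint alone.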

How the data were processed

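The submitters' processing notes name cutadapt, Bowtie2, SAMtools and MACS2 and hg19 as the build. Versions and settings are not given in the sources used here. Each deposited list holds broad peaks of a single YAP or TAZ library against an input; the inputs have no list of their own. All peak names in the deposited lists give 1 common input, whereas the list names give an input per replicate number, so which input was used is unsettled. The deposited fold is the authors' ratio of signal to input; the deposited −log10 p and −log10 q are the caller's. The deposited score follows the −log10 q and was not used. Depth is unknown, and no filter was applied to the peaks. Members and measures were chosen with earlier results of these data known; positions count from 1.

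Overlaps, medians and exact two-sided permutation tests were computed with Python 3.11.15, numpy 2.4.6, pandas 2.3.3 and scipy 1.17.1, and the overlap and split routines were tested on simulated data. Named regions are the 5 best-ranked with all 4 libraries, the widest and highest-fold peak of each library, the 3 longest empty stretches, the 2 best-ranked of each antibody alone, the fullest and emptiest window, and the peaks at the borders. The excess of −log10 p, the split near 46.3 Mb, the comparison of its sides and the values by part of the chromosome were added after seeing the data. Alternatives were limits on the q-value (0.01) and the fold (4), shortened lists, moved borders, left-out windows or libraries, the replicate block and a stricter overlap.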

Additional observations from a re-analysis of the deposited data

How the results depend on the processing

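Of 118 alternative values of 12 results, 5 reversed, a label given to tested differences alone. Another 28 moved by more than the spread or, for counts, by over 1.5 times. The other 85 kept their direction, for a tested difference, or stayed within those limits. Of the untested results, the cover difference of block and rest also changed sign without the empty windows. So did the Jaccard contrast between antibodies when a YAP library was left out. With a q-value of at most 0.01, the block's share of peaks on chromosome 19 (YAP minus TAZ) was -2.19 percentage points and its covered share 0.454, both reversed. Block against rest, the same limit gave a density ratio of 1.29, a cover difference of 3.07 percentage points, a width difference of -343 bp and a Jaccard difference of 0.0907; 7 regions had TAZ alone. With a fold of at least 4, the YAP minus TAZ differences reversed to 1.996 percentage points of cover and 255 bp of width, the density ratio was 1.80 and the Jaccard difference 0.0266. Shortened lists gave a ratio of 1.195 and 38 regions with YAP alone. Borders moved inward by 1 Mb gave a ratio of 1.09, a cover difference of 2.64 and a Jaccard difference of 0.0758; moved outward, the ratio was 1.10. Without the empty windows the ratio was 1.07 and the cover difference -1.49. At a fold of 4.0 to 4.5 the −log10 p difference was 2.58. Asking that the other antibody cover at least 50% of a region raised the counts to 162 with YAP alone and 140 with TAZ alone. Leaving out 1 library at a time gave -2.44 to 2.03 percentage points of cover, -0.0195 to 0.0631 for the Jaccard contrast between antibodies, 99 to 177 regions with YAP alone and 28 to 85 with TAZ alone. The cause of these changes was not tested.

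Same-numbered libraries share a replicate number, and the list names, but not the peak names, give them a common input; no label ties a number to a culture or day. Over the 15 windows of the block, deviations of same-numbered libraries correlated at 0.636 in covered share and -0.141 in peak number. With the replicate number as a block the differences were as before by construction (137.5 peaks, 0.515 and -0.204 percentage points, -96.5 bp), and there were 0 calls with this or the crossed pairing, as 2 pairs allow no p under 0.5.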
